A study of Homo sapiens with 2 samples.

Results

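The AP-1 transcription factors described here are the FOS genes (FOS, FOSB, FOSL1, FOSL2), the JUN genes (JUN, JUNB, JUND) and the small MAF genes MAFF and MAFK. They were chosen by name with their values after berberine on these same arrays known, so their levels are given as a description and no test was run on them. Of the 9 genes, 8 had a probe in the platform annotation, with 10 of 47231 probes, and no probe was listed for MAFK. The cells were HepG2, which the study's methods describe as a human hepatocellular carcinoma line. They received 40 µM berberine chloride, a plant isoquinoline alkaloid, or 0.08% DMSO as vehicle, and RNA was taken after 4 h. Each group was 1 Illumina HumanHT-12 v4 BeadChip array of 1 cell line, so neither group had a spread between replicates and no p-value for the difference between groups could be had.

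AP-1 factors are basic leucine zipper proteins that bind DNA as dimers. JUN proteins pair with themselves or with FOS proteins, whereas FOS proteins need a JUN partner. The dimers bind the TRE (TGACTCA, the TPA response element) and related sites such as the CRE (TGACGTCA, the cAMP response element). Small MAF proteins carry no activation domain of their own and pair with CNC factors such as NFE2L2, the regulator of antioxidant genes, or with BACH factors. FOS, FOSB, JUN and JUNB are classic immediate early genes, whose transcripts climb soon after growth factors or stress without new protein synthesis. In rodent liver, Fos and Jun are induced early after partial hepatectomy.

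After 4 h of berberine, the 3 JUN genes had more signal than in the vehicle control, and FOS and FOSB were detected only on the berberine array. The fold after background correction was 5.43 for JUNB, 2.74 for JUN and 1.56 for JUND, and in the authors' normalized intensity, which has no background subtracted, it was 2.73, 2.44 and 1.52. FOS was at least 3.05-fold higher and FOSB at least 3.16-fold higher after background correction, while without it the bounds were 1.63 and 1.67. FOSL1, FOSL2 and one MAFF probe differed by less than 1.5-fold, the fold threshold of the study's methods, while another MAFF probe was detected on the berberine array only and was at least 3.40-fold higher after background correction (1.74-fold without it). In RNA of whole cultures, more transcript per cell and more cells with the transcript cannot be told apart.

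The sequences just upstream of these genes are shown because each of the 7 genes with a window carries the core of the CRE, TGACG, whatever the size of its difference. The 150 bases before the annotated start of 5 of them were taken from RefSeq on GRCh38.p14 and are written 5′ to 3′ along the gene. Capitals mark the CRE core TGACG, the CRE, the JUN-type ATF site TGACATCA, the TATA box TATAAA and the CCAAT box CCAAT.
FOS, chr14:75278678-75278827, plus strand: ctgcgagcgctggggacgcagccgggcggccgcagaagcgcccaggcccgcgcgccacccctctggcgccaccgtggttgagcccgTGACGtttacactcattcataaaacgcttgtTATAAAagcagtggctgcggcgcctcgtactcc
FOSB, chr19:45467846-45467995, plus strand: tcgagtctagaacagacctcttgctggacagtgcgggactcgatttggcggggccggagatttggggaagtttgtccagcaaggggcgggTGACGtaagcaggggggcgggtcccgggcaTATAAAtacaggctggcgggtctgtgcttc
JUN, chr1:58784048-58784197, minus strand: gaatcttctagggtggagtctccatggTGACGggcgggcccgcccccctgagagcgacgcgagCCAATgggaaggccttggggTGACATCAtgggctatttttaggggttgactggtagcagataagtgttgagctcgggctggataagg
JUNB, chr19:12791336-12791485, plus strand: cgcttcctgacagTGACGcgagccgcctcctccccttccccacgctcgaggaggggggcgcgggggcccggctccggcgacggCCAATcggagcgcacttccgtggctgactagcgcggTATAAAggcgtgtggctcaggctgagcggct
MAFF, chr22:38201844-38201993, plus strand: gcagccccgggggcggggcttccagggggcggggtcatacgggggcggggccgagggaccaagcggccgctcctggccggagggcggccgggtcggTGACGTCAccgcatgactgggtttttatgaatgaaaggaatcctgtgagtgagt

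In FOS the TGACG core lay 64 to 60 bases before the start and a TATA box 33 to 28 bases before it. FOSB had the same arrangement, with the core at 60 to 56 bases and the TATA box at 30 to 25 bases. In JUN, TGACATCA, a site bound by JUN and ATF proteins, stood 67 to 60 bases before the start, and a TGACG core 123 to 119 bases before it. JUNB had a core at 137 to 133 bases, a CCAAT box at 67 to 63 bases and a TATA box at 31 to 26 bases. In MAFF a full CRE lay 54 to 47 bases before the start. Of the genes whose sequence is not printed, FOSL2 had a core at 66 to 62 bases, and JUND had a CRE at 200 to 193 bases and a further core at 86 to 82 bases. A core or the JUN-type site lay between 67 and 47 bases before the start in 5 of the 8 windows of these 7 genes. The same held in 3.14% of all 35116 windows in RefSeq. The interval was drawn around the matches of these genes themselves.

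RefSeq held 8 windows of 250 bases for 7 of the genes, MAFF having 2 annotated starts, and none was used for FOSL1 or MAFK. On either strand, TGACG, which is also part of every CRE, occurred in 7 of the 8 windows and in 21.2% of all 35116 windows of that length. The whole CRE occurred in 2 of 8 windows, those of JUND and MAFF, and in 1.65% of all windows. TGACATCA occurred in 1 of 8 windows, that of JUN, and in 2.37% of all. The TATA box was in 3 of 8 windows and in 10.7% of all, and the CCAAT box in 4 of 8 and in 32.0% of all. No window held TGACTCA, against 4.20% of all, and none held a CArG box, the site of serum response factor, against 1.16% of all. The member windows had a median GC content of 67.6%, against 58.0% over all windows, and the motifs were selected after the windows had been seen, so these shares are a description of letters only.

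**Figure D1:**
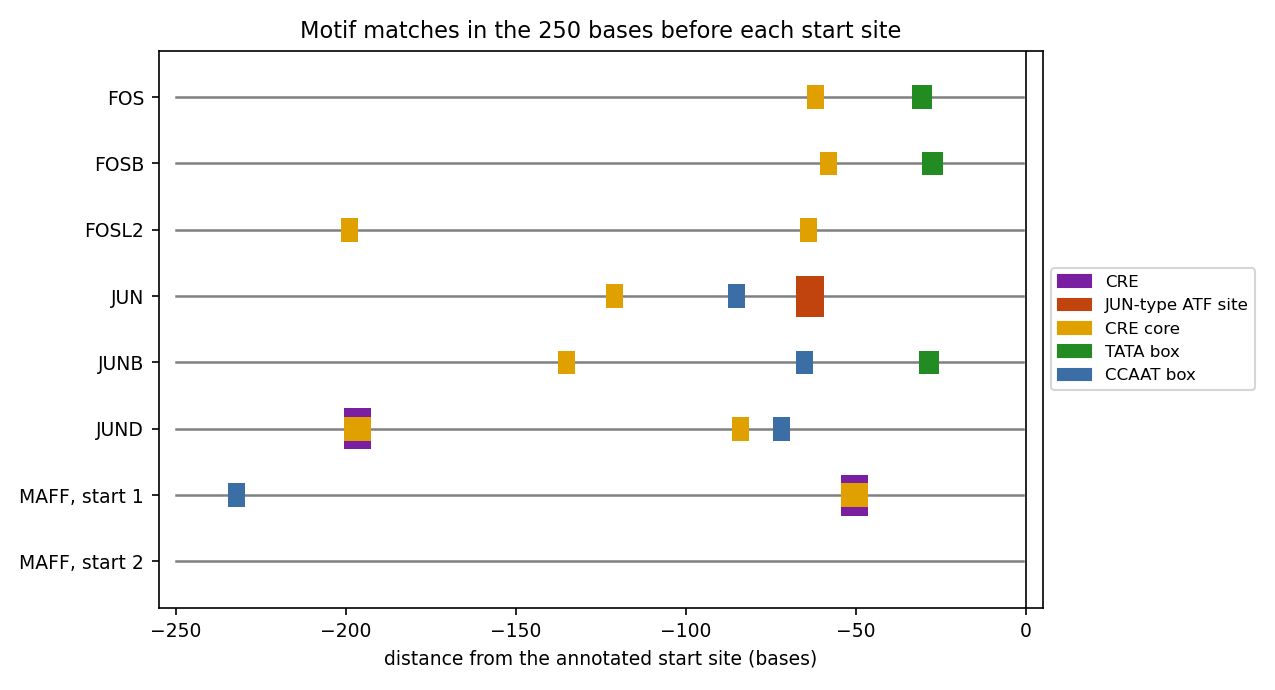
Motif matches in the 250 bases before each annotated start, with distance from the start in bases on the horizontal axis and 1 line per window. Each block is a match on either strand, and taller blocks are longer sites drawn behind a core they contain. In 5 of the 8 windows a core or JUN-type site lies between 67 and 47 bases before the start, an interval set from these matches. Of all windows, 3.14% hold one there. The window of the MAFF start drawn lowest holds no match.

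Intensities below are as deposited without normalization, in arbitrary units of the scanner. The berberine array read higher as a whole, with a median of 130.1 over all probes, against 120.6 on the control array, and its estimated background was 121.51, against 112.55. A probe was called detected with a detection p under 0.01, which 32.6% of probes reached on the berberine array and 32.5% on the control array. The lowest intensity of a detected probe was 151.5 on the berberine array and 141.6 on the control array. Differences are log2 of berberine minus log2 of control after background correction and quantile normalization, and values from the authors' own normalized intensity, which has no background subtracted, follow as "deposited". Hepatocyte markers were measured for 11 of the 11 genes with a probe and differed by -0.18 to 0.16 (median -0.04), and none of the 4 immune, 4 endothelial and 5 fibroblast markers with a probe was detected on either array.

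JUN encodes the activating AP-1 subunit that JNK kinases phosphorylate. Its probe (ILMN_1806023) read 1496.5 on the berberine array and 576.7 on the control array. The log2 difference was 1.45, a 2.74-fold higher signal (deposited 1.28, 2.44-fold). Both arrays read far above their background, and 38 of the 9128 genes detected on both arrays had a larger increase.

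JUNB, a JUN relative that activates simple AP-1 sites more weakly than JUN, had the largest difference of the measured members. Its probe (ILMN_2086077) read 472.5 on the berberine array and 161.5 on the control array. The log2 difference was 2.44, or 5.43-fold, and 9 of 9128 genes had a larger increase. On the control array JUNB stood little above the lowest intensity of a detected probe, where the subtracted background weighs most, and in the deposited values the difference was 1.45, or 2.73-fold, with 17 genes above it.

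JUND is the JUN gene that many resting cells express steadily. Its probe (ILMN_1810214) read 8476.4 after berberine and 5065.2 in the control. The log2 difference was 0.64, a 1.56-fold higher signal (deposited 0.61, 1.52-fold), just past the 1.5-fold threshold. Across the scalings tried its difference lay between 0.61 and 0.70, and 279 genes had a larger increase on the background-corrected scale, against 120 in the deposited values.

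FOS, the founding member of its family, had a probe (ILMN_1669523) that read 246.9 after berberine and 122.7 in the control. Its detection p was 0 on the berberine array and 0.106 on the control array, so the control value was within the range of the negative controls. The fold is therefore a lower bound, at least 3.05-fold higher (deposited at least 1.63-fold), set against the higher of the probe's own control value and the lowest detected value on the control array.

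FOSB, whose protein resembles FOS, gave a similar pair of values. Its probe (ILMN_1751607) read 252.2 after berberine and 134.4 in the control, with detection p of 0 on the berberine array and 0.0182 on the control array. FOSB was at least 3.16-fold higher after berberine (deposited at least 1.67-fold). Over the array, 380 of 20039 genes with a probe were detected on the berberine array only, or 1.90%. Of the 8 genes here, FOS and FOSB were the 2 detected that way, and since the genes were chosen with these values known, the count is not read against that share.

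FOSL1 encodes Fra-1 and FOSL2 encodes Fra-2, FOS relatives that lack the strong activation domain of FOS. FOSL1 (ILMN_1771841) read 320.3 after berberine and 250.1 in the control, a log2 difference of 0.43 or 1.35-fold (deposited 0.28, 1.21-fold). FOSL2 (ILMN_1725175) read 172.5 after berberine and 154.4 in the control, a difference of 0.17 or 1.12-fold (deposited 0.06, 1.04-fold). FOSL2 was near the limit of detection on both arrays, with a detection p of 0.0026 on each.

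MAFF, the small MAF gene with probes, had 3 probes, all annotated to the same transcript, and they did not give the same result. ILMN_2322375, the probe detected on both arrays, read 237.0 after berberine and 195.2 in the control, a log2 difference of 0.38 or 1.30-fold (deposited 0.20, 1.15-fold). ILMN_1680139 read 263.1 after berberine and 132.0 in the control, where its detection p was 0.026, and was at least 3.40-fold higher (deposited at least 1.74-fold). ILMN_1700413 read 141.4 after berberine and 110.3 in the control and was detected on neither array. All 3 probes read higher on the berberine array, but the size of the MAFF difference depends on which probe is taken.

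**Figure D2:**
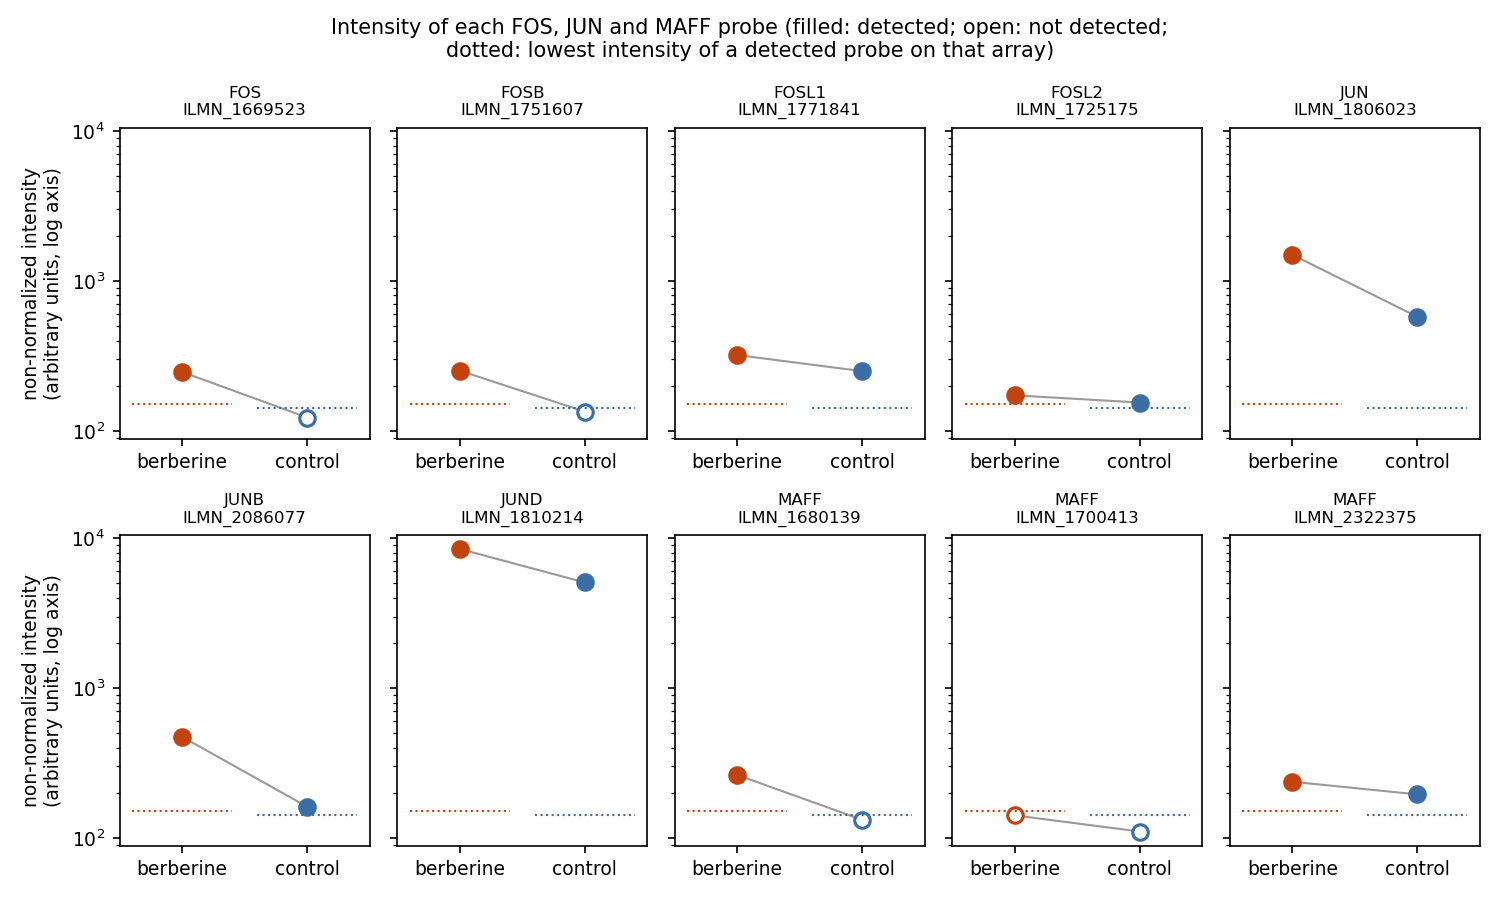
Non-normalized intensity of each of the 10 probes (log axis, arbitrary units) on the berberine array, left, and the control array, right. Filled points were detected with p under 0.01, open points were not, and dotted lines give the lowest intensity of a detected probe on that array (151.5 with berberine, 141.6 in the control). FOS, FOSB and MAFF probe ILMN_1680139 pass from filled to open between berberine and control.

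With 1 array per group, the only error that could be estimated was that between probes of the same gene on the same arrays. Over 2193 genes with at least 2 detected probes, the SD of a single probe's log2 difference was 0.247. It was 0.323 where both probes had a log2 level under 7, 0.220 between 7 and 10 and 0.143 above 10. By their mean level over both arrays, JUNB, JUN and JUND differed by several times the SD of their range. JUNB had a log2 level of 6.03 in the control, under 7, and its deposited difference was 1.45. FOSL1 at 0.43 and the MAFF probe at 0.38 differed by more than the SD of their range but less than 2 SD. The FOSL2 difference of 0.17 was smaller than the SD of its range. The genes were selected on this contrast, so setting their differences beside the SD is a description and no test. This SD holds probe error and transcript forms, and it does not hold the spread between cultures. Only probes detected on both arrays entered it, which may make it too small for dim probes. The MAFF probe that was at least 3.40-fold higher, beside 1.30-fold for the other, was left out that way.

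The differences of the 6 measured members were all above 0, with a median of 0.54 (deposited 0.44), and 3 of the 6 passed 1.5-fold upward and 0 downward. Among all 9128 measured genes, 3.87% passed 1.5-fold upward and 4.09% downward, the median was -0.01, and 4338 differences were above 0. In the deposited values 1.44% of genes passed upward, the same 3 members among them, and 1.01% downward. The genes were selected on this contrast, and nothing is read from their share.

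**Figure D3:**
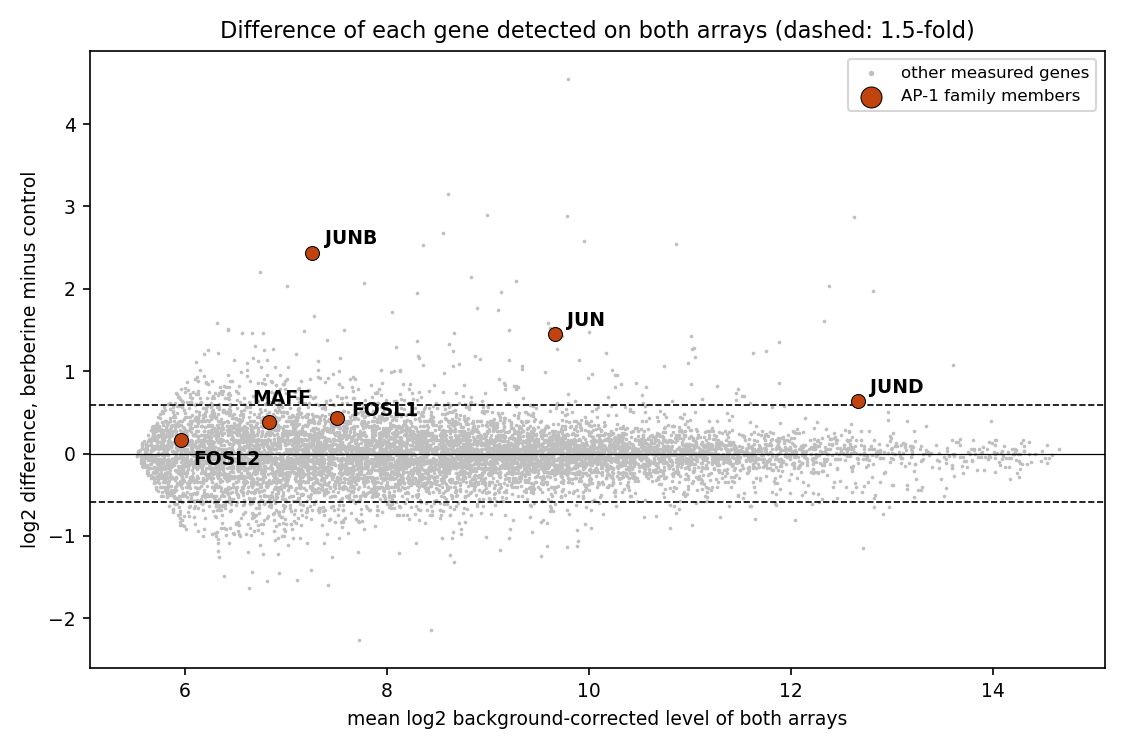
Log2 difference, berberine minus control, against the mean log2 background-corrected level of both arrays for the 9128 genes detected on both, with the 6 measured AP-1 members in orange and dashed lines at 1.5-fold. JUNB, JUN and JUND lie above the upper line and FOSL1, MAFF and FOSL2 between the lines. Grey points spread more widely at low levels.

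**Figure D4:**
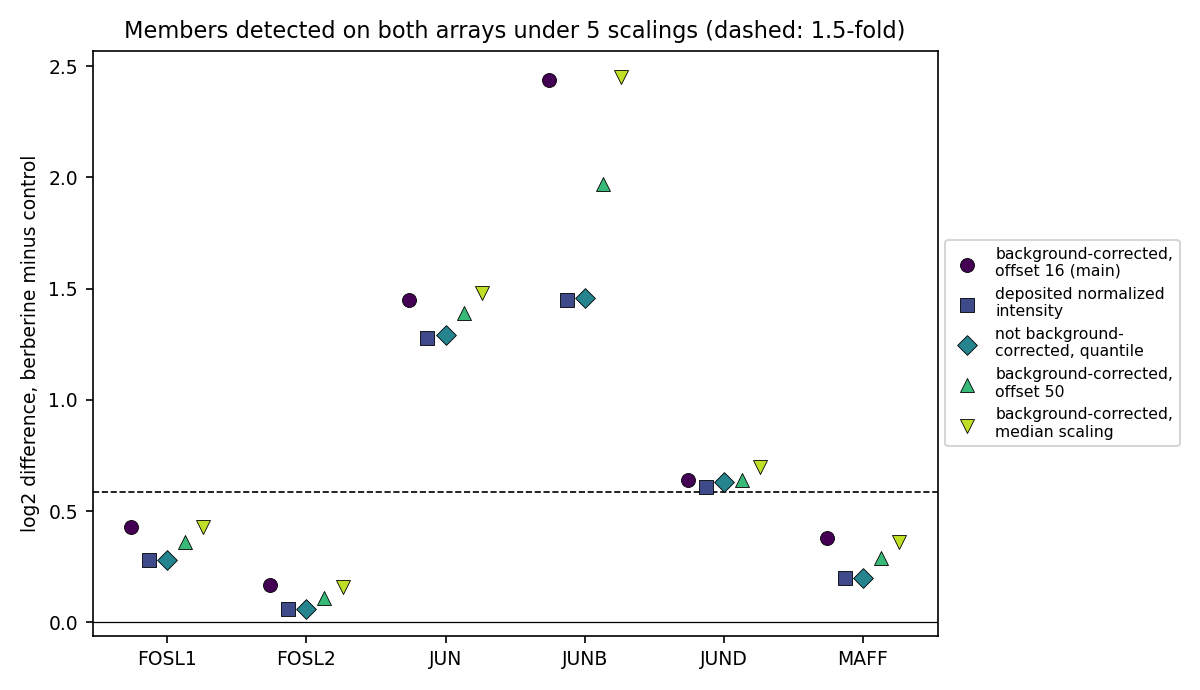
Log2 difference, berberine minus control, of the 6 measured members under 5 scalings of the same arrays, with a dashed line at 1.5-fold. JUNB ranges from 1.45 in the deposited intensity to 2.45 with median scaling, while JUN, JUNB and JUND lie above the line and the other members below it under each scaling drawn.

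The genes around AP-1 were described through 7 lists holding 81 genes, which like the members were chosen with earlier results of these data known. After berberine 10 of the 47 measured ones stood past 1.5-fold above the control and 1 was that much lower (6 and 0 on the deposited scale). Each list is read beside the shares of all genes given above. Of the 76 listed genes with a probe, 5 were detected on the control array only and 0 on the berberine array only, and 1.79% of all 20039 genes with a probe were detected on the control array only.

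Of 7 CNC, BACH and small MAF genes that pair with MAFF and MAFK, 4 were measured, with a median difference of 0.39, and 1 passed 1.5-fold. NFE2L2, the partner through which small MAF proteins reach antioxidant response elements, read 2966.1 after berberine and 1588.1 in the control, or 1.79-fold (deposited 1.73-fold). MAFG, the remaining small MAF gene, was 1.49-fold higher (deposited 1.27-fold). Of the large MAF factors only MAF was measured, at 412.4 after berberine and 441.9 in the control, a log2 difference of -0.25.

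Of 9 ATF, BATF and JDP2 genes, whose proteins dimerize with JUN or FOS, 3 were measured and 2 passed 1.5-fold. ATF3, a stress-inducible partner of JUN, read 240.6 after berberine and 156.3 in the control, or 2.20-fold. In the control ATF3 stood little above the lowest intensity of a detected probe, 141.6. ATF2, which with JUN binds the site TGACATCA printed above for the JUN promoter, read 305.1 after berberine and 209.7 in the control, or 1.71-fold. Neither passed in the deposited values, where ATF3 was 1.44-fold and ATF2 1.38-fold higher. ATF4, a factor of the amino acid response, differed by -0.16.

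MAP kinase pathways lead to the phosphorylation of FOS, JUN and their promoter factors. Of 24 genes of these pathways, 16 were measured, with differences from -0.59 to 0.32 and a median of 0.07. None was over 1.5-fold higher and 1 was lower. MAPK7, which encodes ERK5, read 177.8 after berberine and 201.9 in the control, a difference of -0.59, and in the deposited values it was -0.27 and did not pass.

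Among 10 factors known to act at the FOS and JUN promoters, 6 were measured and 2 were over 1.5-fold higher. SRF, which binds a CArG box of the FOS promoter farther upstream than the window searched, read 2457.3 after berberine and 1499.1 in the control, or 1.56-fold (deposited 1.52-fold). Its coactivator MRTFA read 192.2 after berberine and 147.8 in the control, or 1.64-fold (deposited 1.22-fold). The control value of MRTFA was little above the lowest intensity of a detected probe there, 141.6. CREB1, the CRE-binding factor, differed by -0.38.

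All 7 genes of AP-1 turnover and cofactors were measured, and 2 were over 1.5-fold higher. ZFP36, which binds AU-rich elements and speeds the decay of short-lived transcripts, read 1878.6 after berberine and 688.9 in the control, or 2.80-fold (deposited 2.54-fold). ZFP36L1, of the same family, read 1572.2 after berberine and 720.1 in the control, or 2.21-fold (deposited 2.05-fold). The list had a median of 0.13, so the rest of it stood close to 0.

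Of 20 genes with known AP-1 sites, 10 were measured, 3 of them over 1.5-fold higher, with a median of 0.20. DUSP1, the phosphatase that switches off MAP kinases, read 1439.5 after berberine and 388.9 in the control, or 4.29-fold (deposited 3.45-fold). CXCL8, the neutrophil chemokine, read 389.8 after berberine and 182.4 in the control, or 3.19-fold (deposited 2.01-fold), while its second probe gave a difference of only 0.39. HBEGF, an EGF family ligand, read 191.4 after berberine and 148.3 in the control, or 1.61-fold (deposited 1.21-fold). That control value was little above 141.6, the lowest intensity of a detected probe on the control array. The matrix metalloproteinases MMP1, MMP3, MMP9, MMP10 and MMP13, and PLAU, IL6, CCL2 and CD44, were detected on neither array.

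**Figure D5:**
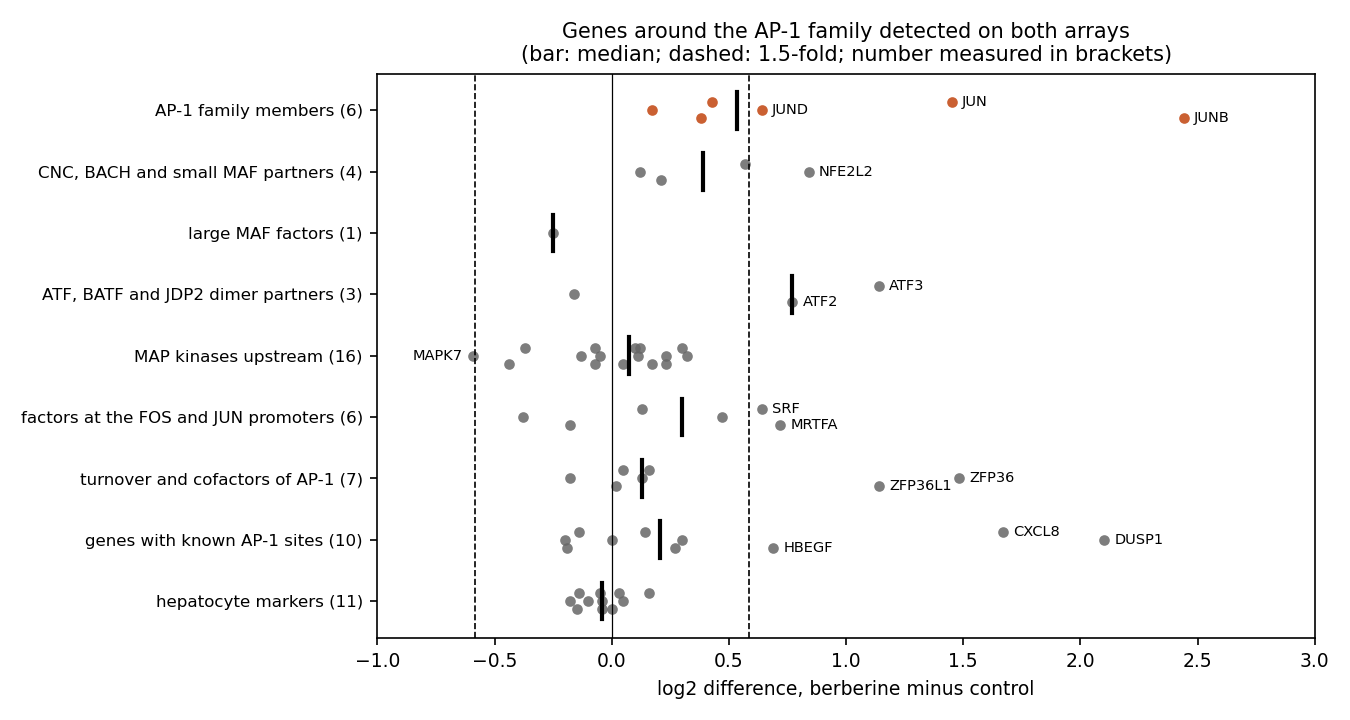
Log2 difference, berberine minus control, of each gene detected on both arrays, by list, with the AP-1 members in orange on the top line, black bars at each median and dashed lines at 1.5-fold. Numbers in brackets are the genes measured, and genes past 1.5-fold are named. The 16 MAP kinase genes lie between -0.59 and 0.32 and the 11 hepatocyte markers between -0.18 and 0.16.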

How the data were processed

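Total RNA of HepG2 cells was measured on Illumina HumanHT-12 v4 arrays, 1 per group. The labels name a Roche kit for RNA isolation and the methods TRIZOL. The authors deposited probe intensity without background subtraction or normalization, with a detection p-value per probe from 770 negative controls, and a table of normalized intensity, for which the submitters' processing notes name GenomeStudio without a version. The deposited normalized intensity keeps the rank of every probe (rank correlation 1), and its method is not named.

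Background was estimated from the detection p-values and corrected with neqc of limma 3.58.1 (offset 16, quantile normalization, log2) in R 4.3.3, and further steps used Python 3.11.15, pandas 2.3.3 and numpy 2.4.6. The count of arrays limits precision, and folds of dim probes depend on the background. Of 47231 probes, 30113 had 1 gene symbol, 8 had several and 17110 had none, and only the first kind was used. Symbols were updated through RefSeq of GRCh38.p14. A gene was measured when a probe had a detection p under 0.01 on both arrays, by its brightest such probe. Scripts were tested on simulated data. No test between groups was run. Members and lists were chosen with earlier results of these data known. Named are all members and, from each list, genes past 1.5-fold, else the largest difference. MAFG, ATF4, CREB1 and the AP-1 site genes that were not detected were named after their values were seen. Scaling, offset, detection limit and probe choice were varied.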

Additional observations from a re-analysis of the deposited data

How the results depend on the processing

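JUN, JUNB and JUND were over 1.5-fold higher under each of the 7 alternatives, and no member changed direction. With no filter on dim probes, FOS and FOSB joined them through control values that were not detected (detection p 0.106 and 0.0182). Then 5 of 8 members were higher, with a median of 1.05, beside 671 of all 20039 genes. Nothing is read from that share, since the members were selected on this contrast. With detection p under 0.05, FOSB counted as detected on both arrays, leaving 1 member detected on the berberine array only. The JUNB difference was 1.45 in the deposited normalized intensity, 1.46 with raw intensity and quantile normalization and 1.97 with an offset of 50. Of 42 alternative values of single members, 39 stayed within the probe-pair SD of the value reported, and the 3 that moved were of JUNB. The count says little about stability. The detection limit, the filter and the averaging of probes left the same probe for each of the 6 members, so those values repeat the main ones. Raw intensity with quantile normalization nearly repeated the deposited values. Of the 9128 genes measured, 353 passed 1.5-fold upward and 373 downward. For the same genes the counts were 131 upward and 92 downward both in the deposited intensity and with raw intensity and quantile normalization. With an offset of 50 they were 213 and 218. With no filter they were 671 and 671, out of a larger set of 20039 genes.

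No paired analysis was possible because each group held 1 array, which also left no replicate to omit. FOS, FOSB, FOSL2, JUNB in the control and all MAFF probes lay near background, which limits the size of their folds. The same holds for ATF3, MRTFA and HBEGF in the control. A difference between cultures cannot be told apart from one of treatment.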

Other observations

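Of the 76 listed genes around AP-1 with a probe, 5 were detected on the control array only, against 1.79% of all genes with a probe. They were picked after their values were seen. ELK1, an ETS factor that joins SRF at the FOS promoter, read 145.8 after berberine (detection p 0.0221) and 185.0 in the control, and was at least 1.99-fold lower after berberine (deposited at least 1.30-fold). MRTFB, an SRF coactivator like MRTFA, read 144.3 after berberine (detection p 0.0247) and 167.5 in the control, and was at least 1.60-fold lower (deposited at least 1.18-fold). NFE2 read 138.9 after berberine and 152.7 in the control (at least 1.26-fold lower, deposited 1.08-fold), and MAP2K6 read 141.4 after berberine and 147.4 in the control (at least 1.14-fold lower, deposited 1.04-fold). CREB5 read 147.4 after berberine and 145.2 in the control, so that it was higher after berberine before normalization, and at least 1.09-fold lower after it (deposited 1.03-fold). Among the factors of the FOS promoter, SRF and MRTFA read higher after berberine, and ELK1 and MRTFB lower. Of these only SRF had a deposited fold or bound past 1.5 (1.52-fold). MRTFA read 147.8 in the control, near the lowest intensity of a detected probe there, 141.6. On the berberine array all 5 genes detected on the control array only read below 151.5, the lowest intensity of a detected probe there. The bounds take no account of probe error, for which the SD in log2 was 0.323 at levels under 7. The bounds of MRTFB, NFE2, MAP2K6 and CREB5 are therefore not read as decreases, and that of ELK1 rests on a dim probe.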
